A study of Mus musculus with 12 samples.

Results

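The levels of 10 BCL2 family genes were followed in 12 RNA-Seq libraries of mouse tumor organoids in which SMAD4 could be re-expressed. The genes were taken by name from a given list, and all 10 were found among the 24906 genes of each deposited table. Of these, 3 are pro-survival members (Bcl2, Bcl2l1 and Mcl1), 5 are BH3-only members (Bcl2l11, Bmf, Bik, Bbc3 and Pmaip1) and 2 are effector members (Bax and Bak1). Levels are given in FPKM, a unit that counts fragments relative to transcript length and library depth, and all 10 genes had a mean of at least 0.5 FPKM in both culture environments and so entered the tests.

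The BCL2 family controls the mitochondrial route to apoptosis. The effectors BAX and BAK form pores in the outer mitochondrial membrane, which release cytochrome c and start the caspase cascade, and the pro-survival proteins BCL-2, BCL-XL and MCL-1 bind and restrain them. BH3-only proteins sense damage, loss of growth factor or loss of attachment, and they act by occupying the pro-survival proteins or by activating the effectors. In the intestine this balance is known to set how readily crypt cells die after damage or after they leave the matrix, and TGFβ signaling, which runs through SMAD4, is known to induce BH3-only genes in several epithelial cell types.

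The organoids came from small intestinal tumors of Villin-CreERT2 mice, in which tamoxifen removes Smad4 and switches on BRAFV600E from 1 allele in the intestinal epithelium, and all groups shared this Smad4KO and BRAFV600E/+ background. All carried the lentiviral construct pINDUCER-SMAD4 by their labels, were selected with puromycin, and were grown in medium with EGF, Noggin and R-spondin. Induced libraries received 4 µg/mL doxycycline (dox) for 48 h, and their controls were left without it or with vehicle. In BME, a basement membrane extract for 3D growth, there were 3 untreated libraries (lines 682, 700 and 889) and 2 dox libraries (lines 700 and 889). A sixth BME library, of line 682, has a treatment label that adds the word mock to dox, although title and genotype are written like those of dox libraries, and the study's methods also name a mock plasmid. It was kept among the BME controls, and its pair is given apart below. On plastic, where the organoids grew without matrix, there were 3 untreated and 3 dox libraries, of lines 560, 700 and 889. Each line number was taken to name the organoids of 1 animal, so the libraries of a line formed a pair. The main tests leave this pairing out, and their p-values measure the spread between libraries of the same group. In the BME controls, line 682 is counted as 2 libraries. Fits with the line as a block were made as alternatives.

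Smad4 was examined first in each pair. In BME it was 6.53 FPKM without dox and 17.2 FPKM with dox in line 700, 6.23 and 27.3 FPKM in line 889, and 8.88 and 10.3 FPKM in the untreated and mock libraries of line 682. On plastic it was 1.54 and 73.6 FPKM in line 560, 2.99 and 18.1 FPKM in line 700, and 4.76 and 48.9 FPKM in line 889. Smad4 was thus higher with dox in all 5 dox pairs, by 1.28 to 4.88 on the log2(FPKM + 1) scale, and differed by 0.19 in the mock pair. It did not pass the test across all genes, with a limma change in BME of 1.36 (SE 0.27, adjusted p = 0.959), beside 3.42 (SE 0.55, adjusted p = 0.162) on plastic. Which species' cDNA the construct carries was not given in the sources used here, so these values hold only the reads that were assigned to mouse Smad4.

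The libraries held 14533534 to 16329337 rebuilt reads in BME and 17049344 to 21101832 on plastic. For the 10 members, a value rested on between 16 reads (Bmf in untreated line 889 on plastic) and 10648 reads (Bcl2l1 in untreated line 700 on plastic). The 10 intestinal epithelial markers summed to 5961 to 7050 FPKM in the BME controls and 9791 to 11425 FPKM in the BME dox libraries, and to 12781 to 17919 FPKM on plastic. The higher BME dox sum lay mostly in the keratins Krt8, Krt18 and Krt19 (changes of 1.13, 0.91 and 1.03), while Cdx2, Cldn7 and Lgals4 had changes of 0.04, 0.11 and 0.11 and were lower with dox in line 889. On plastic 2 of the 9 markers tested were higher and 3 lower in all 3 dox pairs. Among them were Epcam (0.75, 0.41 and 1.74) and Krt19 (-0.90, -1.36 and -0.58), in lines 560, 700 and 889. The fibroblast, immune and endothelial markers each summed to at most 39.5 FPKM in a library, and the pan-leukocyte marker Ptprc was at most 0.0958 FPKM. That highest sum was immune and mostly Cd68, a macrophage marker, which was 2.70 FPKM without dox and 38.7 FPKM with dox in plastic line 889, the pair with the largest differences of Bcl2 and Bcl2l11, and 3.58 to 16.1 FPKM in the other libraries. The part of Cd68 and of the higher epithelial marker sum of the BME dox libraries in the members' values was not tested. In organoids, fewer cells with a transcript and less of it per cell cannot be told apart.

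**Figure D1:**
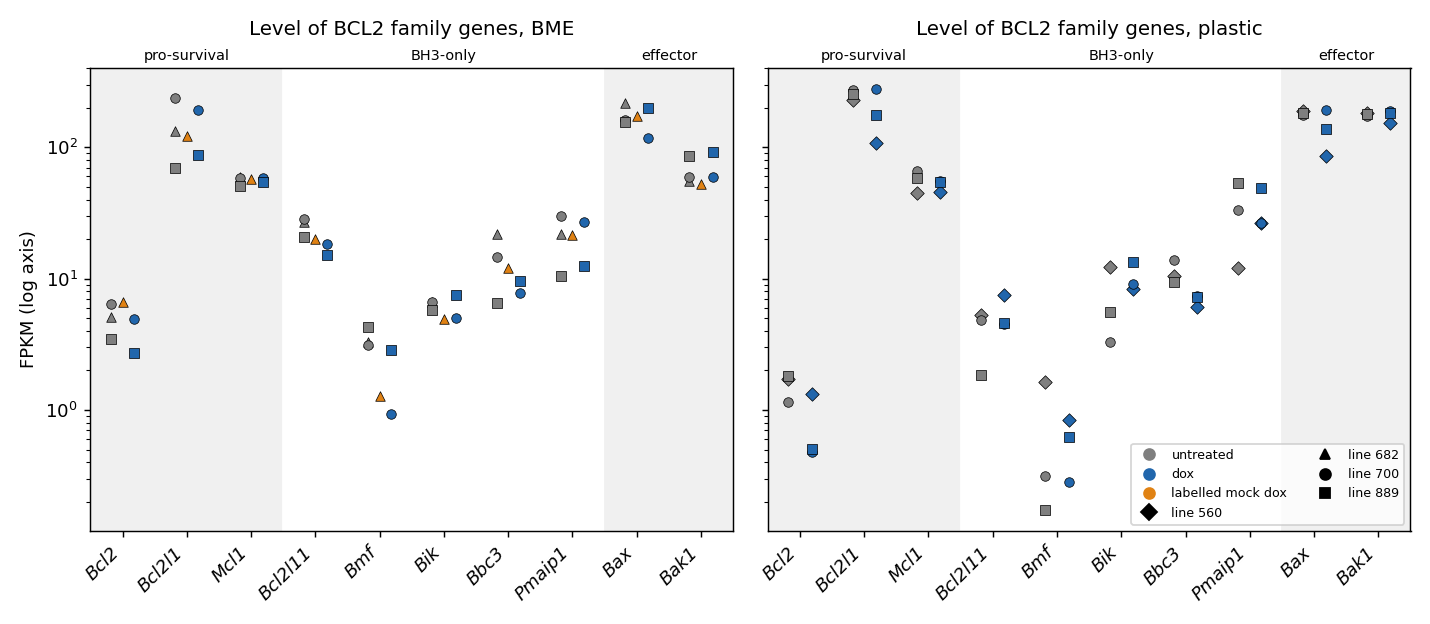
FPKM (log axis) of the 10 members in each of the 6 BME and 6 plastic libraries, by role, with color for treatment and marker shape for organoid line. By the mean of 6 libraries, Bax, Bcl2l1 and Bak1 stand highest in both environments and Bmf and Bcl2 lowest, while in single BME libraries neighbors change places, such as Mcl1 (59.7 FPKM) above Bak1 (55.0 FPKM) in untreated line 682.

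The order of levels was described within each environment, since the tables were normalized apart. In BME the members ran from Bax (mean 171 ± 35.2 FPKM, SD over 6 libraries) and Bcl2l1 (141 ± 63.8 FPKM) through Bak1 (67.4 ± 17.0 FPKM), Mcl1 (56.5 ± 3.56 FPKM), Bcl2l11 (21.6 ± 5.12 FPKM), Pmaip1 (20.5 ± 7.73 FPKM), Bbc3 (12.1 ± 5.62 FPKM) and Bik (6.10 ± 1.02 FPKM) down to Bcl2 (4.89 ± 1.58 FPKM) and Bmf (2.63 ± 1.28 FPKM). Bax stood above Bcl2l1, Bcl2l1 above Bak1, Bak1 above Mcl1 and Bcl2 above Bmf in 4 of 6 libraries each, and Bcl2l11 above Pmaip1 in 3, so these neighbors were not separated. Pmaip1 stood above Bbc3 and Bik above Bcl2 in 5 of 6, and Mcl1 above Bcl2l11 and Bbc3 above Bik in 6 of 6. On plastic Bcl2l1 led (220.4 ± 66.9 FPKM), followed by Bak1 (176 ± 12.8 FPKM) and Bax (161 ± 41.3 FPKM). There Bcl2l1 stood above Bak1 in 4 of 6 libraries and Bak1 above Bax in 2, so these neighbors were not separated, while Bcl2l1 stood above Bax in 6 of 6. Mcl1 (54.1 ± 8.09 FPKM) and Pmaip1 (33.3 ± 15.4 FPKM) came next on plastic, in that order in 6 of 6 libraries. Bcl2l11 was the fifth gene in BME and the eighth on plastic (4.76 ± 1.80 FPKM), below Bik in 5 of 6 plastic libraries. Bcl2 (1.17 ± 0.577 FPKM) and Bmf (0.646 ± 0.546 FPKM) were again the lowest.

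The comparison of dox with control libraries asked whether re-expression of SMAD4 was accompanied by other levels of pro-survival or pro-apoptotic genes. No member passed the test in either environment. With limma, which was fitted across all genes with Benjamini-Hochberg adjustment and called a gene when its adjusted p was under 0.05 and its change exceeded 1 in size, 0 of 10 members were called in BME, where 0.0231% of 12996 genes were called, and 0 of 10 on plastic, where 0.0324% of 12333 genes were called. The lowest adjusted p of a member was 0.959 in BME and 0.558 on plastic. At an unadjusted p under 0.05 there were 0 members in BME, where 1.47% of all genes were lower and 2.62% higher by that rule. On plastic there was 1, Bbc3, which was lower, against 3.73% of all genes lower and 4.56% higher. With limma-voom on the rebuilt reads 0 members were called in either environment, and 1 (Bcl2l11, lower in BME) and 2 (Bbc3 and Bcl2, lower on plastic) had an unadjusted p under 0.05. With the line as a block in limma, 0 genes of the whole table were called in BME and 7 on plastic, 0 of them members, and the members with an unadjusted p under 0.05 were 1 in BME (Bcl2l11) and 1 on plastic (Bbc3). In BME with the mock library left out, Bcl2l11 had an unadjusted p of 0.042 with limma, beside 357 of 12996 genes under 0.05. With that library counted with dox, Bcl2l11 (0.037) and Bmf (0.032) lay under 0.05, both lower, beside 287 genes. In these 2 fits 0 genes were called. The median change of the 10 members was -0.15 in BME and -0.07 on plastic, beside -0.01 and 0.01 over all genes tested.

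The width of the intervals sets what these tests could show. The 95% interval of a member's change reached 0.32 (Mcl1) to 1.27 (Bcl2l1) on either side in BME and 0.44 (Bak1) to 1.30 (Pmaip1) on plastic. For Mcl1 in BME it ran from 0.800-fold to 1.25-fold, and for Bak1 on plastic from 0.728-fold to 1.34-fold. For Bcl2l1 in BME it ran from 0.420-fold to 2.44-fold. These folds are of FPKM + 1 and so understate the change of low genes such as Bmf and Bcl2.

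**Figure D2:**
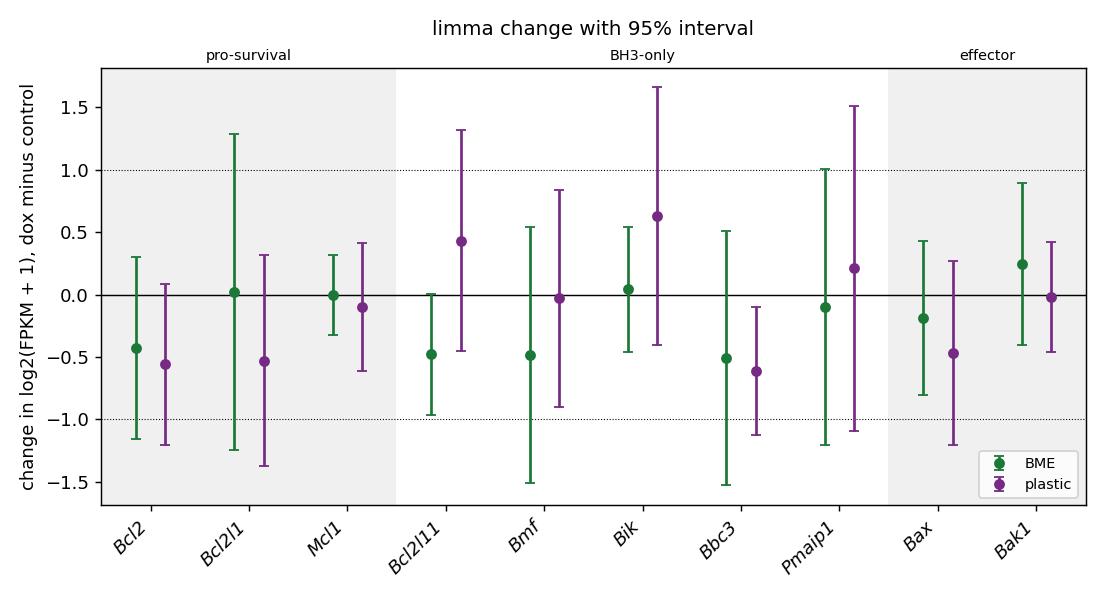
Change in log2(FPKM + 1), dox minus control, of the 10 members with 95% intervals from limma, for BME (2 dox and 4 control libraries) and plastic (3 and 3). Dotted lines mark a change of 1. Every interval but that of Bbc3 on plastic spans 0. The narrowest interval is that of Mcl1 in BME and that of Bak1 on plastic.

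Promoters are shown for Bcl2 and Bbc3, the members that were lower with dox in all 3 plastic pairs. The 250 bases before the transcription start are given 5′ to 3′ on the strand of the gene, from RefSeq (GRCm38.p6), and each matched the NCBIM37 genome exactly in 1 place, at chr1:108610868-108611117 (minus strand) for Bcl2 and at chr7:16894682-16894931 (plus strand) for the first of the 3 starts listed for Bbc3. Capitals mark the SMAD half-site CAGAC, searched on both strands and thus also as GTCTG.
Bcl2: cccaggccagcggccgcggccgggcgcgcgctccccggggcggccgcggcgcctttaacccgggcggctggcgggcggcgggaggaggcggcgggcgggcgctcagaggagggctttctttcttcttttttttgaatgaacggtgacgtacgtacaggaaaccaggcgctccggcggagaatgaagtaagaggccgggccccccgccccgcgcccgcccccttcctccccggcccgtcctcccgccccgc
Bbc3: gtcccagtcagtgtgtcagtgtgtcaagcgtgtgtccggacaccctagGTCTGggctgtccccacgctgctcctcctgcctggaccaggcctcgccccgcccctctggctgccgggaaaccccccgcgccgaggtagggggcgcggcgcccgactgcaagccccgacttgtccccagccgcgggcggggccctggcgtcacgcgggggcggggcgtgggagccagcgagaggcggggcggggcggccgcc
The Bcl2 window held 0 matches and the Bbc3 window 1. Among the 8 members with an entry that were searched, 5 had a match in at least 1 of their windows, 6 of 15 windows in all. A match was held by 42.2% of the 32851 windows of the table, so the members' share lies near that of all promoters. A match is a description of the letters and not a site of binding.

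Among the pro-survival members, Bcl2 was lower in every dox pair, Bcl2l1 differed in direction between lines, and Mcl1 lay within a narrow range. None of the 3 passed the test. Bcl2 (chromosome 1, 108434755 to 108610851, minus strand, NCBIM37) encodes the founding pro-survival protein. In BME it was 6.43 FPKM without dox and 4.90 FPKM with dox in line 700, and 3.47 and 2.70 FPKM in line 889. On plastic it was 1.73 and 1.32 FPKM in line 560, 1.16 and 0.480 FPKM in line 700, and 1.80 and 0.502 FPKM in line 889. The dox value was the lower of the pair in 5 of 5 pairs, while the dox and control groups overlapped in both environments. Genes lower in all 5 dox pairs made up 8.06% of the 11977 genes tested in both environments, and genes higher in all 5 made up 8.7%. For Bcl2 limma gave -0.43 (SE 0.30, adjusted p = 0.959) in BME, beside -0.56 (SE 0.27, adjusted p = 0.644) on plastic. The plastic value was -1.05 with a pseudocount of 0.1 and -1.23 with limma-voom on the rebuilt reads, and the adjusted p ranged from 0.377 to 0.998 over the alternatives. Without the dox library of line 889 the BME value was -0.094, and without that of line 700 it was -0.77. In the mock pair of line 682 Bcl2 went the other way, from 5.14 to 6.69 FPKM. With each library rescaled to the same FPKM total, the line 560 pair gave 0.02 for Bcl2 in place of -0.24, with the median of all genes in that pair moved from 0.00 to 0.35.

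Bcl2l1 (chromosome 2, 152593052 to 152657464, minus strand) encodes BCL-XL and was the most abundant pro-survival transcript, at 56.4% to 78.5% of the summed pro-survival FPKM in BME and 69.7% to 83.4% on plastic. In BME it was 237 and 193 FPKM without and with dox in line 700, 69.5 and 87.1 FPKM in line 889, and 134 and 122 FPKM in the untreated and mock libraries of line 682. Its untreated level in BME thus differed more between lines than between the libraries of any line. The plastic values of Bcl2l1 were 228 and 108 FPKM in line 560, 275 and 279 FPKM in line 700, and 256 and 175 FPKM in line 889, and the dox groups overlapped the controls. For Bcl2l1 limma gave 0.02 (SE 0.52, adjusted p = 0.999) in BME, beside -0.53 (SE 0.35, adjusted p = 0.762) on plastic. The plastic value was -0.19 without the dox library of line 560 and -0.87 without that of line 700.

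Mcl1 (chromosome 3, 95462643 to 95467099, plus strand) encodes a pro-survival protein with a short life that many epithelia depend on. Its 6 BME values lay between 50.3 and 59.7 FPKM, a coefficient of variation of 6.30%, and its 6 plastic values between 44.5 and 66.3 FPKM. For Mcl1 limma gave -0.00 (SE 0.13, adjusted p = 0.999) in BME, beside -0.10 (SE 0.21, adjusted p = 0.942) on plastic. It was the steadiest member in BME, whereas on plastic Bak1 varied least.

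The BH3-only members differed in direction between environments and lines, and none of the 5 passed the test. In BME, Bcl2l11 and Bmf were lower with dox in both dox pairs, and in the mock pair as well. Bcl2l11 (chromosome 2, 127951774 to 127988283, plus strand) encodes BIM, which binds all pro-survival proteins and is held down by ERK signaling. It was 28.6 and 18.3 FPKM without and with dox in line 700 and 20.6 and 15.2 FPKM in line 889. The untreated library of line 682 had 26.8 FPKM and its mock library 19.9 FPKM, so each of the 2 dox libraries lay below each of the 4 controls, with the mock library nearest to them. Genes for which every dox library lay below every control made up 5.83% of all genes tested in BME. For Bcl2l11 limma gave -0.48 (SE 0.20, 95% interval -0.96 to 0.01, adjusted p = 0.959). On plastic Bcl2l11 was 5.30 and 7.48 FPKM without and with dox in line 560, 4.86 and 4.48 FPKM in line 700, and 1.86 and 4.56 FPKM in line 889. It was therefore higher with dox in 2 of 3 pairs there, with a limma change of 0.43 (SE 0.37, adjusted p = 0.820). This value was 0.069 without the untreated library of line 889 and 0.64 without that of line 560.

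Bmf (chromosome 2, 118354493 to 118375423, minus strand) encodes a BH3-only protein known for its part in the death of detached epithelial cells. In BME it was 3.10 and 0.925 FPKM without and with dox in line 700, 4.30 and 2.88 FPKM in line 889, and 3.29 and 1.29 FPKM in the untreated and mock libraries of line 682. The treated library was the lower in all 3, the mock pair included, by 1.09, 0.45 and 0.91 on the log2(FPKM + 1) scale in this order. Smad4 differed by 0.19 in that mock pair. That pair is the only one of line 682, and its label is unclear. The part of Smad4, dox or line in the lower Bmf values was not tested. On plastic Bmf lay between 0.173 and 1.64 FPKM, rested on 16 to 150 reads, and was lower with dox in 2 of 3 pairs. For Bmf limma gave -0.48 (SE 0.42, adjusted p = 0.959) in BME, beside -0.03 (SE 0.36, adjusted p = 0.990) on plastic. The BME value was -0.77 with the line as a block, 0.021 without the dox library of line 700 and -0.99 without that of line 889.

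Bbc3 (chromosome 7, 16894965 to 16903554, plus strand) encodes PUMA, a p53 target that binds all pro-survival proteins. The plastic values were 10.4 and 6.12 FPKM without and with dox in line 560, 13.8 and 7.39 FPKM in line 700, and 9.38 and 7.25 FPKM in line 889. Each dox library lay below each untreated library there, which held for 7.26% of all genes tested on plastic. For Bbc3 limma gave -0.61 (SE 0.21, 95% interval -1.12 to -0.10), with an unadjusted p of 0.0259 and an adjusted p of 0.558, so the difference did not pass the test. In BME the pairs disagreed, with 14.7 and 7.72 FPKM in line 700 but 6.55 and 9.62 FPKM in line 889. The untreated library of line 682 had 21.8 FPKM and its mock library 11.99 FPKM. The limma change in BME was -0.51 (SE 0.42, adjusted p = 0.959). It was -0.18 with the line as a block, -0.26 without the untreated library of line 682 and -0.80 without that of line 889.

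Bik (chromosome 15, 83357292 to 83375065, plus strand) encodes a BH3-only protein of the endoplasmic reticulum. The plastic values of Bik were 12.2 and 8.39 FPKM without and with dox in line 560, 3.32 and 9.14 FPKM in line 700, and 5.53 and 13.5 FPKM in line 889. It thus had the highest mean pair change of any member on plastic, 0.63 ± 0.97 (SD over 3 pairs), made of a lower value in line 560 and higher values in the other two lines. In BME it lay between 4.97 and 7.54 FPKM, lower in line 700 and higher in line 889 with dox. For Bik limma gave 0.04 (SE 0.21, adjusted p = 0.993) in BME, beside 0.63 (SE 0.43, adjusted p = 0.770) on plastic. The plastic value was 0.26 without the untreated library of line 700 and 1.07 without that of line 560.

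Pmaip1 (chromosome 18, 66618258 to 66625204, plus strand) encodes NOXA, which binds MCL-1 and marks it for degradation. It differed more between lines than with dox, from 10.5 FPKM in untreated line 889 to 30.1 FPKM in untreated line 700 in BME. On plastic the order of these lines was the other way without dox, with 53.2 FPKM in line 889, 33.0 FPKM in line 700 and 12.03 FPKM in line 560, and with dox it was 48.6, 26.5 and 26.4 FPKM. The line 560 pair, from 12.03 to 26.4 FPKM with dox, was the 1 pair of Pmaip1 that differed by more than 1 on the log2(FPKM + 1) scale. For Pmaip1 limma gave -0.10 (SE 0.46, adjusted p = 0.993) in BME, beside 0.21 (SE 0.54, adjusted p = 0.956) on plastic.

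**Figure D3:**
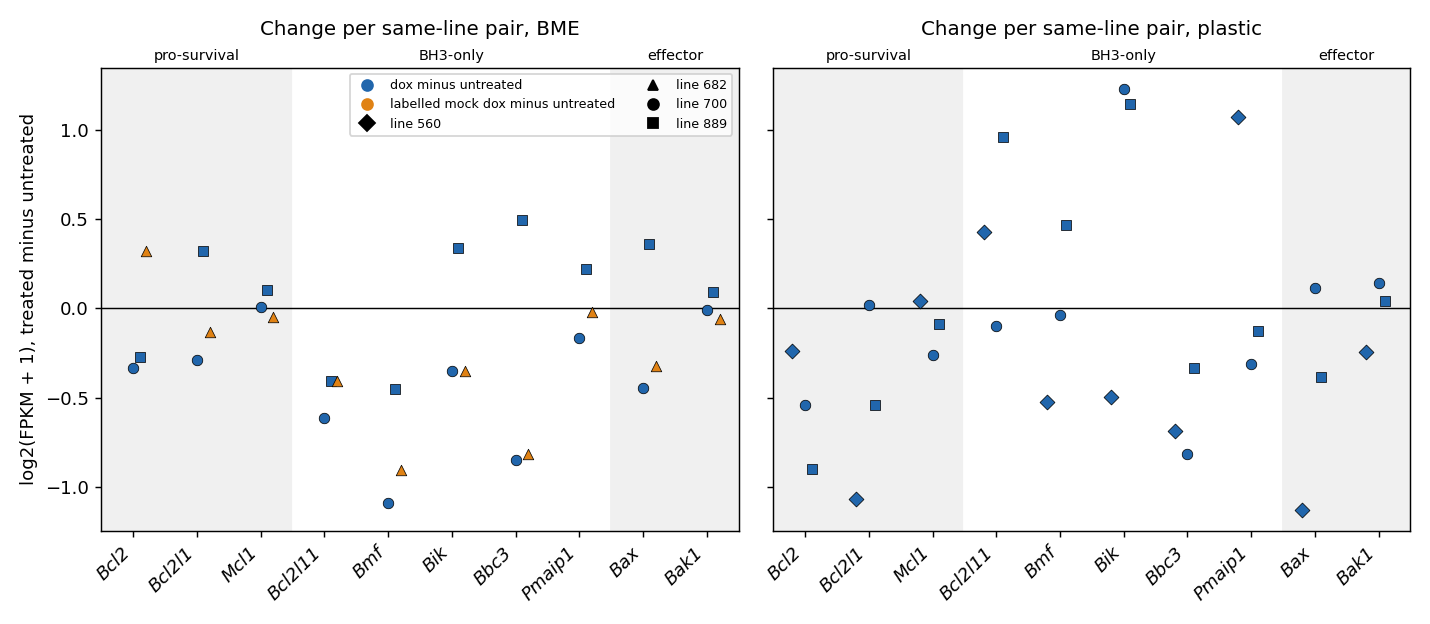
Change in log2(FPKM + 1), treated minus untreated library of the same line, for the 10 members in BME (lines 700 and 889 with dox, line 682 with mock dox) and on plastic (lines 560, 700 and 889 with dox). Bcl2 is below 0 in all 5 dox pairs and above 0 in the mock pair, Bcl2l11 and Bmf are below 0 in all 3 BME pairs, and Bbc3 is below 0 in all 3 plastic pairs.

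The effector members did not pass the test either. Bax (chromosome 7, 52717065 to 52722268, minus strand), a p53 target that moves to mitochondria when activated, was 161 and 117 FPKM without and with dox in line 700 and 156 and 200.4 FPKM in line 889 in BME. The untreated library of line 682 had 217 FPKM and its mock library 173 FPKM. The plastic values of Bax were 189 and 85.9 FPKM in line 560, 177 and 192 FPKM in line 700, and 181 and 139 FPKM in line 889. The 3 untreated plastic libraries lay within 177 to 189 FPKM, and of the dox libraries 2 lay below them and 1 above. For Bax limma gave -0.19 (SE 0.25, adjusted p = 0.963) in BME, beside -0.47 (SE 0.31, adjusted p = 0.755) on plastic. The BME value was -0.044 with the line as a block and 0.19 without the dox library of line 700. The plastic value was -0.16 without the dox library of line 560 and -0.74 without that of line 700.

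Bak1 (chromosome 17, 27156755 to 27165954, minus strand), which resides in the mitochondrial membrane, lay between 52.7 and 91.9 FPKM in BME and between 153 and 189 FPKM on plastic. Its dox and untreated libraries of a line differed by at most 0.24 on the log2(FPKM + 1) scale, in line 560 on plastic. For Bak1 limma gave 0.24 (SE 0.27, adjusted p = 0.959) in BME, where line 889 was the highest both with and without dox, beside -0.02 (SE 0.18, adjusted p = 0.987) on plastic.

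Counted over roles, the pairs gave no common direction. In BME, members lower in both dox pairs were 1 of 3 pro-survival (Bcl2), 2 of 5 BH3-only (Bcl2l11 and Bmf) and 0 of 2 effector members, and 1 member was higher in both (Mcl1, by 0.01 and 0.10). Over all genes tested in BME, 29.5% were lower and 27.2% higher in both dox pairs, so 3 and 1 of 10 members is close to or under the background. On plastic, members lower in all 3 pairs were 1 of 3 pro-survival (Bcl2), 1 of 5 BH3-only (Bbc3) and 0 of 2 effector members, and 0 were higher in all 3, beside 18.7% and 18.6% of all genes.

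The levels were also summed by role in each library, which gives ratios that no scaling of a library can alter. The sums rest mostly on Bcl2l1 on the pro-survival side and on Bax and Bak1 on the other, which made up 72.6% to 86.0% of the pro-apoptotic FPKM in BME and 81.2% to 89.9% on plastic. The ratio of the pro-survival sum to the sum of BH3-only and effector members was 0.995 and 1.09 without and with dox in BME line 700, 0.426 and 0.424 in line 889, and 0.564 and 0.654 in the untreated and mock libraries of line 682. On plastic it was 0.666 and 0.540 in line 560, 0.848 and 0.781 in line 700, and 0.737 and 0.582 in line 889. The ratio was thus lower with dox in 3 of 3 plastic pairs, by 0.30, 0.12 and 0.34 on the log2 scale. In BME the log2 ratio differed by 0.13 and -0.01 in the dox pairs and by 0.21 in that of line 682 with mock dox. These are descriptions of 2 and 3 pairs, and no test was made of them.

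Against the BH3-only sum alone, the ratio was higher with dox in all 3 BME pairs, with mock dox included. This ratio went from 3.62 to 4.37 in line 700, from 2.59 to 3.02 in line 889, and from 2.48 to 3.13 in line 682. On plastic it went from 6.59 to 3.16 in line 560 and from 4.50 to 3.10 in line 889, but from 6.19 to 7.01 in line 700. The ratio to the effector sum was lower with dox in all 3 plastic pairs. On the log2 scale it differed by at most 0.09 in the BME dox pairs and by 0.18 in the mock pair.

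**Figure D4:**
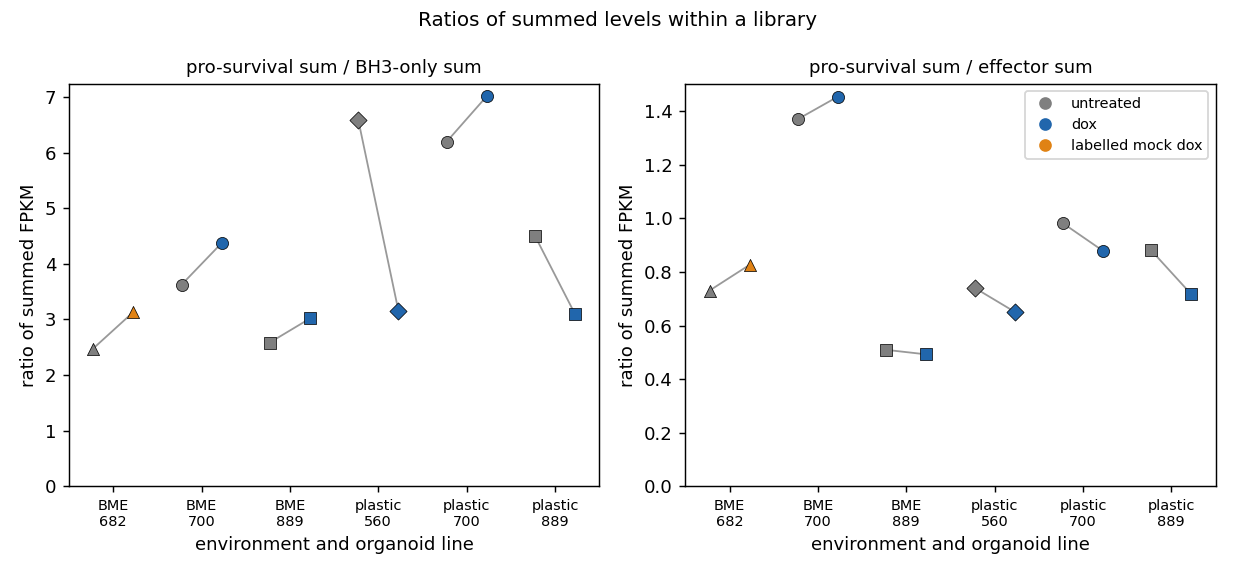
Ratio of summed FPKM of the 3 pro-survival members to that of the 5 BH3-only members (left) and of the 2 effector members (right), untreated and treated library of each line joined by a line. The ratio to the BH3-only sum is higher in the treated library in the 3 BME pairs, and the ratio to the effector sum is lower with dox in the 3 plastic pairs.

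Whether the response to dox differed between plastic and BME was tested as an interaction over all 12 libraries. With limma 0 of 10 members were called, as were 0.0% of the 11977 genes tested, and 0 members had an unadjusted p under 0.05 with limma or limma-voom, while 1 (Bcl2l11) did with the line as a block. The largest difference was that of Bcl2l11, 0.91 (plastic minus BME, SE 0.45, 95% interval -0.08 to 1.90, adjusted p = 1.00), lower in 2 of 2 BME pairs and higher in 2 of 3 plastic pairs. The 95% intervals of the other members reached 0.54 (Mcl1) to 1.71 (Pmaip1) on either side of their differences, so equal responses are not shown. In lines 700 and 889, which were grown in both environments, the Bcl2l11 pairs gave -0.62 and -0.41 in BME and -0.10 and 0.96 on plastic. The Bik pairs of these lines gave -0.35 and 0.34 in BME and 1.23 and 1.15 on plastic. The Bcl2l1 pairs gave -0.29 and 0.32 in BME and 0.02 and -0.54 on plastic, so line 889 turned from higher to lower. Levels set side by side across the tables, which were normalized apart, were 15.2 to 28.6 FPKM of Bcl2l11 in BME and 1.86 to 7.48 FPKM on plastic, and 2.70 to 6.69 and 0.480 to 1.80 FPKM of Bcl2. No test was made of them.

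Other genes of the apoptosis machinery were described from 5 lists of 74 genes. With limma 0 of them were called in either environment or for the difference, and with limma-voom 0. For the difference, 1 gene (Htra2, lower on plastic relative to BME) had an unadjusted p under 0.05 with either tool. Among the 13 other BCL2 family genes, 8 were tested in each environment, 1 had an unadjusted p under 0.05 in BME, where it was higher as were 2.62% of all genes, and 0 did on plastic, and the median change was 0.21 and 0.14. Bad, a BH3-only gene, was 42.4 and 60.3 FPKM without and with dox in line 700 and 32.2 and 49.6 FPKM in line 889 in BME, with a limma change of 0.49 (SE 0.17, adjusted p = 0.959), and 37.5 and 43.0 FPKM in the untreated and mock libraries. On plastic it was lower in line 560 and higher in the other two lines. Bok, an effector-like gene, was higher with dox in both BME pairs, by 0.01 and 0.62. Bcl2l2, which encodes the pro-survival protein BCL-W, was higher with dox in 3 of 3 plastic pairs, by 0.37, 0.26 and 0.47 (adjusted p = 0.755, limma), and Bid, which links caspase-8 to mitochondria, by 0.12, 0.01 and 0.23 (adjusted p = 0.954, limma). Bcl2l15 was at most 1.91 FPKM in BME, where its pairs gave -0.21 and -0.23, and reached 32.1 FPKM on plastic. Of the 8 genes tested, 4 were higher and 1 lower in both BME dox pairs, beside 27.2% and 29.5% of all genes. On plastic 2 were higher and 0 lower in all 3 pairs, beside 18.6% and 18.7%. The genes given here were named because their dox pairs in an environment moved the same way, so that direction is no result.

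All 15 genes of the list of apoptosome components and caspases were tested in both environments. With limma 1 had an unadjusted p under 0.05 in BME, again beside 2.62% of all genes higher, and 0 on plastic, and the median change was 0.09 and -0.06. Casp8, the initiator caspase of death receptors, was 38.4 and 80.0 FPKM without and with dox in line 700, 53.9 and 85.0 FPKM in line 889, and 27.8 and 45.5 FPKM in the untreated and mock libraries of line 682. Its limma change in BME was 1.02 (SE 0.26, adjusted p = 0.959), and its plastic pairs gave 0.21, 0.53 and 0.37. Casp6, an executioner caspase, was 22.4 and 67.6 FPKM in BME line 700, 20.2 and 34.9 FPKM in line 889, and 30.7 and 64.1 FPKM in the untreated and mock libraries (adjusted p = 0.959, limma). Casp9, the caspase of the apoptosome, was higher with dox in all 5 pairs, by 0.28 and 0.25 in BME and by 0.50, 0.37 and 0.50 on plastic, where its adjusted p was 0.603. Casp8, Casp6 and Casp9 were named because their dox pairs moved the same way, so their common direction is no result, and none of them passed the test. Of the 15 genes, 5 were higher and 4 lower in both BME dox pairs, and 3 were higher and 4 lower in all 3 plastic pairs, for example Vdac2, a channel of the outer mitochondrial membrane, with -0.35, -0.20 and -0.25. Over all genes tested, 27.2% were higher and 29.5% lower in both BME dox pairs, 18.6% higher and 18.7% lower in all 3 plastic pairs, and 8.7% higher in all 5, so the counts of the list lie near the background.

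Of the 8 inhibitors of apoptosis and their antagonists, 0 had an unadjusted p under 0.05 in BME and 2 did on plastic, both lower, beside 3.73% of all genes lower and 4.56% higher there. Birc5, which encodes survivin, a mitotic protein made in dividing cells, was 44.3 and 25.1 FPKM without and with dox in plastic line 560, 32.9 and 11.4 FPKM in line 700, and 35.5 and 14.1 FPKM in line 889, with a limma change of -1.17 (SE 0.31, adjusted p = 0.417). In BME its pairs gave -0.85 and 0.16. Htra2, a mitochondrial protease that antagonizes inhibitors of apoptosis, was 34.6 and 16.5 FPKM in plastic line 560, 31.2 and 22.6 FPKM in line 700, and 31.7 and 14.5 FPKM in line 889, with a limma change of -0.85 (SE 0.21, adjusted p = 0.394). In BME it was lower in both dox pairs, with changes of -0.46 and -0.03. Birc2 (cIAP1) gave -0.15 and -0.30 in the BME pairs, and Xiap, an inhibitor of caspases, gave 0.17 and 0.02. Of the 8 genes, 2 were higher and 2 lower in both BME dox pairs, beside 27.2% and 29.5% of all genes. On plastic 0 were higher and 2 lower in all 3 pairs, beside 18.6% and 18.7%. The genes given here were named because their dox pairs in an environment moved the same way, so that direction is no result.

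Of the 11 death receptor and ligand genes, 10 were tested in BME and 9 on plastic, and the 1 with an unadjusted p under 0.05 was Pidd1 on plastic, where it was lower as were 3.73% of all genes by this rule. Pidd1, a death domain gene of the p53 response, was lower in 3 of 3 plastic pairs, with changes of -0.56, -0.67 and -0.70 (adjusted p = 0.589, limma). Its partner Cradd gave -0.53, -0.56 and -0.48 and the adaptor Fadd -0.42, -0.28 and -0.10 in the same pairs. Of the 9 genes tested on plastic, 3 were lower and 0 higher in all 3 pairs, beside 18.7% and 18.6% of all genes. Of the 10 tested in BME, 4 were higher and 3 lower in both dox pairs, beside 27.2% and 29.5%. The genes given here were named because their dox pairs in an environment moved the same way, so that direction is no result. In BME, Tnfrsf10b, which encodes the mouse TRAIL receptor, gave 0.27 and 0.43, and Tnf gave 0.21 and 0.55, while Tnfsf10, the TRAIL gene, gave -0.50 and -0.10 at no more than 1.03 FPKM. In the mock pair Tnfrsf10b gave 0.45, Tnf 0.69 and Tnfsf10 -0.20. The plastic pairs of Tnf, without and with dox, were 9.69 and 39.6 FPKM (line 560), 11.5 and 11.3 FPKM (line 700), and 13.3 and 83.9 FPKM (line 889), where the last dox library also had the highest Cd68, with a limma change of 1.49 (SE 0.66, adjusted p = 0.617).

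The 27 p53 targets, which include the members Bbc3, Pmaip1 and Bax, were all tested. Their median change was -0.19 in BME and -0.26 on plastic, beside -0.01 and 0.01 over all genes. An unadjusted p under 0.05 was reached by 7 on plastic, of which 1 was higher and 6 were lower, and by 0 in BME, beside 4.56% of all genes higher and 3.73% lower on plastic. Cdkn1a, which encodes the cell cycle inhibitor p21 and is also a known target of SMAD signaling, was 167 and 422 FPKM without and with dox in plastic line 560, 197 and 704 FPKM in line 700, and 143 and 804 FPKM in line 889. Its limma change on plastic was 1.88 (SE 0.30, adjusted p = 0.157). In BME it was 128 and 565 FPKM in line 700, 71.8 and 208 FPKM in line 889, and 177 and 324 FPKM in the untreated and mock libraries of line 682 (1.17, SE 0.65, adjusted p = 0.959). Gtse1 and Ckap2, which serve the mitotic spindle, were lower in 3 of 3 plastic pairs, with limma changes of -1.13 (SE 0.27, adjusted p = 0.346) and -1.11 (SE 0.41, adjusted p = 0.571). Plk2, a kinase induced by p53, was lower in all 5 dox pairs, as were 8.06% of the genes tested in both environments. Its changes were -1.01 and -0.60 in BME, -0.27, -1.02 and -1.72 on plastic, and -0.40 in the mock pair. Eda2r gave -0.85 and -0.01 in the BME pairs. Of the 27 targets, 4 were higher and 10 lower in all 3 plastic pairs, beside 18.6% and 18.7% of all genes. Perp (0.84, 1.94 and 0.51) and Mdm2 (0.41, 0.37 and 0.06) were among the higher, and the member Bbc3 among the lower. In BME, 5 were higher and 4 lower in both dox pairs, beside 27.2% and 29.5%. The targets outside the members were named because their dox pairs moved the same way. Their common direction, also that of Cdkn1a against Bbc3, is thus no result.

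**Figure D5:**
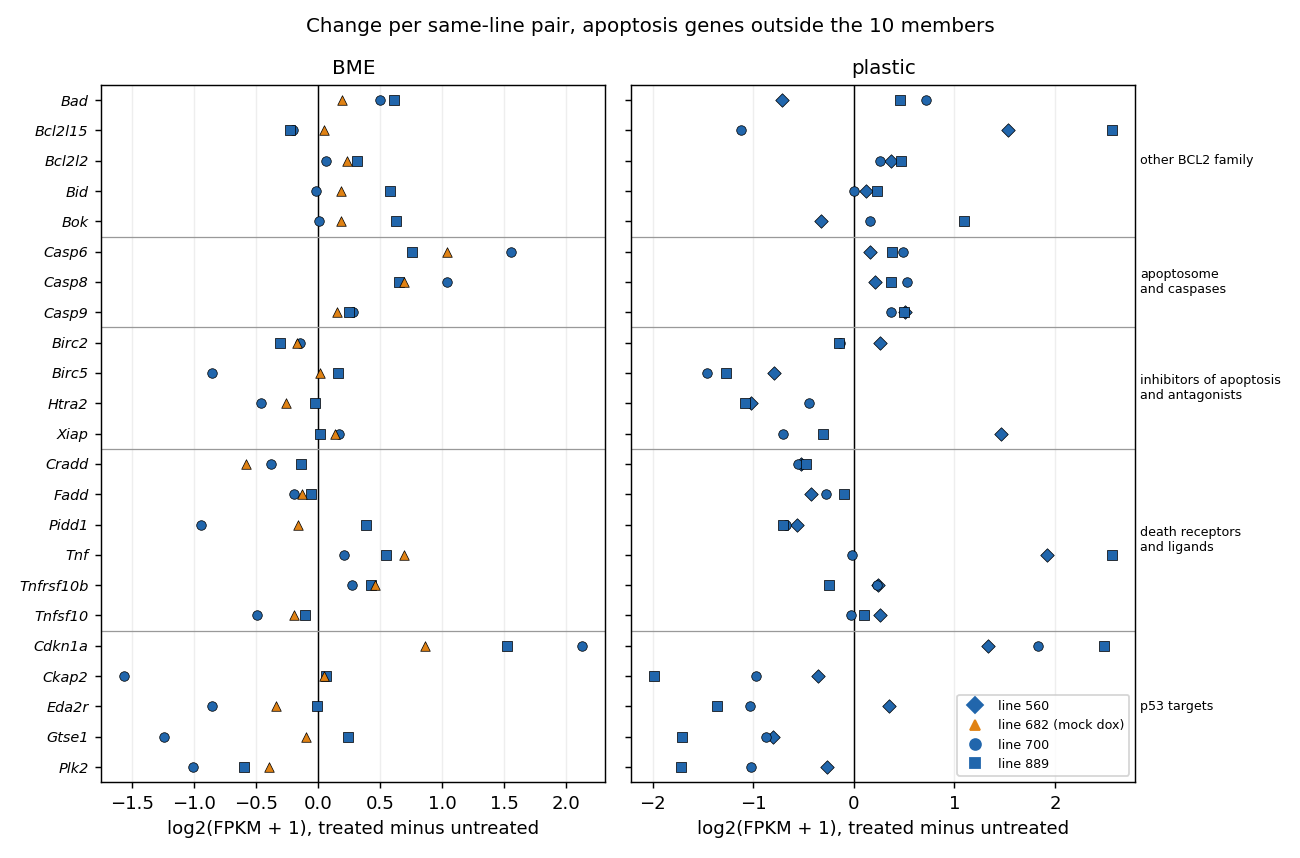
Change in log2(FPKM + 1), treated minus untreated library of the same line, for the genes named from the 5 further lists, in BME (left) and on plastic (right). Cdkn1a, Casp6, Casp8 and Casp9 lie above 0 in every pair, and Birc5, Htra2, Gtse1 and Ckap2 lie below 0 in all 3 plastic pairs. Genes were named because their dox pairs in an environment moved the same way, so that direction is no result.

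The genes whose pattern over the 6 libraries of an environment was most like that of the member with the largest mean pair change were listed as a description. In BME that member was Bmf (mean pair change -0.77), and among 9225 genes the highest Pearson correlations on log2(FPKM + 1) were those of 1700066B19Rik (0.994), Rbm17 (0.987), Gpn1 (0.980), Lgr5 (0.980) and Srf (0.975). Lgr5, the marker of crypt stem cells, ranged from 12.3 to 71.1 FPKM. On plastic it was Bik, and among 8363 genes the highest were Mcts1 (0.998), Zbtb45 (0.997), Unc119 (0.985), Dvl2 (0.983) and Marveld1 (0.983). The 6 libraries of an environment share lines and a normalization. Over 6 libraries and this many genes, correlations this high can arise by chance, and no link between these genes and the members was tested.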

How the data were processed

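Bulk RNA-Seq of 12 organoid libraries was analysed from 2 tables of 6 libraries, for BME and plastic. The deposited FPKM values were made by the authors; their processing notes name kallisto, DESeq, DESeq2 and the build mm9, with versions not given in the sources used here. The authors' normalized mean count per gene, a signal column, was used only to find what 1 read was worth in FPKM and rebuild read counts (91.3% to 93.1% of low values were whole within 0.1 read). The deposited columns of the authors' own comparisons (log2 fold change, standard error, statistic, p and adjusted p) were not used.

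Values were tested as log2(FPKM + 1) with limma 3.58.1 (R 4.3.3, eBayes with a trend), on genes with a mean of at least 0.5 FPKM, with Benjamini-Hochberg adjustment. Such a scale understates the change of low genes. Environments were fitted apart, and their difference as an interaction, in the main fits without a term for the line. The script was tested on simulated data. A line number in the titles was read as 1 animal, so same-numbered libraries form pairs. The correlation of their deviations from group means was 0.612 and 0.660 in BME and 0.461, 0.612 and 0.247 on plastic. Between different lines it ran from -0.66 to 0.279 in BME and from -0.484 to 0.106 on plastic. Deviations from the mean of so few libraries offset each other, and those of the 2 BME dox libraries are exact opposites. These values are therefore weak support for the pairing. Fits with the line as a block, another pseudocount, no filter, 2 rescalings, limma-voom on rebuilt reads, the mock library left out or counted with dox, lines 700 and 889 alone, and each library left out were alternatives.

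The members and gene lists were chosen with earlier results of these data known. All members are named. From each further list and environment, called genes and up to 3 genes with the largest mean pair change among those whose dox pairs move the same way are named, together with the 5 genes most correlated with the leading member. Some of their values in the other environment are given for comparison.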

Additional observations from a re-analysis of the deposited data

How the results depend on the processing

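No member passed both thresholds under any of 470 values from the alternatives, where the lowest adjusted p (limma) was 0.322. The adjusted p ranged from 0.322 to 0.998 for Bbc3 on plastic, from 0.377 to 0.998 for Bcl2 on plastic and from 0.663 to 1.00 for Bcl2l11 in BME, and their directions held in each. Of 30 member results, 11 kept their direction throughout and 19 turned at least once. The cause was not tested.

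Counts of called genes over the whole tables were small and depended on the setting. In BME, 3 genes were called, against 0 in the paired fit with the line as a block, 1 with a pseudocount of 0.1, 1 with limma-voom, 0 with the mock library left out, 0 with it counted with dox, and 0 to 35 with 1 library left out, the 35 being without dox line 700. On plastic, 4 were called, against 7 with the block, 10 with a pseudocount of 0.1, 10 with limma-voom, 0 with no filter, and 0 to 46 with 1 library left out, the 46 being without dox line 700. For the difference, 0 were called, against 5 with no filter. The block changed no call of a member.

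Among the members, changes in BME turned with the block for Mcl1 (0.056), Bik (-0.0056) and Pmaip1 (0.028). They turned with equal FPKM totals for Bcl2l1 (-0.061) and Bik (-0.025), with the upper quartile for Bcl2l1 (-0.029), and with limma-voom for Bcl2l1 (-0.054) and Bik (-0.020). These 3 settings moved the median of all genes in BME from -0.0057 to -0.077, -0.045 and -0.077, so relative to that median neither gene turned. They also turned without the mock library for Bcl2l1 (-0.0054), Mcl1 (0.010) and Bik (-0.032), and with it as dox for Bcl2l1 (-0.034), Mcl1 (0.021), Bik (-0.12) and Pmaip1 (0.011). On plastic Bmf turned with a pseudocount of 0.1 (0.13), equal FPKM totals (0.040) and limma-voom (0.15). In lines 700 and 889 alone, the differences of Pmaip1 (-0.25) and Bak1 (0.051) turned. Without turning, the BME change of Bax was -0.044 and the difference of Bbc3 -0.43 with the block. Over all alternatives, the change in BME ranged from -0.77 to -0.094 for Bcl2, -0.55 to 0.59 for Bcl2l1, -0.078 to 0.056 for Mcl1, -0.60 to -0.35 for Bcl2l11, -0.99 to 0.021 for Bmf, -0.21 to 0.29 for Bik, -0.80 to -0.18 for Bbc3, -0.62 to 0.42 for Pmaip1, -0.57 to 0.19 for Bax and -0.070 to 0.56 for Bak1. On plastic it ranged from -1.23 to -0.45 for Bcl2, -0.87 to -0.19 for Bcl2l1, -0.26 to 0.024 for Mcl1, 0.069 to 0.64 for Bcl2l11, -0.25 to 0.33 for Bmf, 0.26 to 1.07 for Bik, -0.75 to -0.46 for Bbc3, -0.36 to 0.67 for Pmaip1, -0.74 to -0.16 for Bax and -0.090 to 0.075 for Bak1. The difference ranged from -0.62 to 0.21 for Bcl2, -1.12 to 0.024 for Bcl2l1, -0.26 to 0.025 for Mcl1, 0.55 to 1.12 for Bcl2l11, -0.051 to 0.99 for Bmf, 0.22 to 1.20 for Bik, -0.43 to 0.18 for Bbc3, -0.26 to 0.84 for Pmaip1, -0.66 to 0.11 for Bax and -0.58 to 0.051 for Bak1.

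With 1 library left out, BME changes that turned ranged from -0.070 to 0.56 for Bak1, -0.57 to 0.19 for Bax, -0.55 to 0.59 for Bcl2l1, -0.21 to 0.29 for Bik, -0.99 to 0.021 for Bmf, -0.057 to 0.056 for Mcl1 and -0.62 to 0.42 for Pmaip1. On plastic they ranged from -0.079 to 0.075 for Bak1, -0.25 to 0.33 for Bmf, -0.26 to 0.024 for Mcl1 and -0.36 to 0.67 for Pmaip1. Differences ranged from -0.58 to 0.050 for Bak1, -0.66 to 0.11 for Bax, -0.35 to 0.19 for Bbc3, -0.47 to 0.21 for Bcl2, -1.12 to 0.024 for Bcl2l1, -0.051 to 0.96 for Bmf, -0.26 to 0.025 for Mcl1 and -0.26 to 0.84 for Pmaip1. Of the values that did not turn, those in BME ranged from -0.77 (without dox line 700) to -0.094 (without dox line 889) for Bcl2, -0.80 (without untreated line 889) to -0.26 (without untreated line 682) for Bbc3 and -0.60 to -0.35 for Bcl2l11. Those on plastic ranged from -0.77 to -0.45 for Bcl2, -0.87 (without dox line 700) to -0.19 (without dox line 560) for Bcl2l1, -0.74 and -0.16 without the same libraries for Bax, 0.069 (without untreated line 889) to 0.64 (without untreated line 560) for Bcl2l11, 0.26 (without untreated line 700) to 1.07 (without untreated line 560) for Bik and -0.72 to -0.46 for Bbc3. The differences ranged from 0.55 to 1.12 for Bcl2l11 and 0.22 to 1.02 for Bik, with the same untreated plastic libraries left out. The mean log2 ratio of pro-survival to pro-apoptotic sums, 0.06 in BME and -0.25 on plastic, ranged from -0.01 to 0.13 and from -0.32 to -0.21 with 1 pair left out.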
